A study of Gallus gallus with 6 samples.

Results

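The proteasome genes of the chick embryonic gut were taken by name, as genes whose symbol begins with PSM, a letter from A to G and a number. Of 17108 genes in the deposited table, 37 carry such a symbol, and the 34 with an RPKM (reads scaled to the length of the gene and the size of the library) above 0 in at least 3 of 6 libraries were kept. All 34 were above 0 in all 6 libraries, and all passed the filter for testing. The labels name no strain, genotype or treatment, and 3 libraries came from the ceca, the paired blind outgrowths at the midgut-hindgut junction, and 3 from the interceca, the gut region the labels set beside them. The embryos were at day 5 of incubation (E5, stage HH26). The series title concerns the hindgut enteric nervous system, and the series compares the mRNA of ceca and interceca. Whether each library holds a different set of embryos is not stated, and the p-values measure only the spread among these 6 samples, some of which may be technical.

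The proteasome degrades proteins that carry ubiquitin. Its 20S core is a barrel of outer alpha rings, which gate the entrance, and inner beta rings, which hold the proteolytic sites. The 19S cap consists of a base, whose ATPases unfold substrates, and a lid, which removes ubiquitin. Other PSM genes encode alternative activators of the core, an inhibitor, and chaperones that assist assembly and leave the finished particle. Proteasomes work in every cell type, and dividing cells depend on them to destroy cyclins.

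Transcript levels of proteasome genes were close to equal in ceca and interceca. With limma's test adjusted over all 10678 genes tested, 2 of the 34 genes were lower in ceca, PSMA6 and PSMG3, and 0 were higher, while 14.1% of all genes tested were lower and 13.5% were higher, 27.5% in all. Among the genes of the same range of levels, 15.6 to 224 RPKM on average, 11.7% were lower. The median level of those genes was 33.1 RPKM, against 113 RPKM for the proteasome genes, so the sets were not matched in level. At an unadjusted p under 0.05, 6 proteasome genes were lower and 0 were higher. Every called gene also had an unadjusted p under 0.05, so at least 14.1% of all genes tested were lower there and at least 13.5% higher. The full share at that threshold was not computed, for this count or for the later ones. With limma-voom on reads recovered from the RPKM, 0 of the 34 were called, against 30.1% of all genes tested, and 4 had an unadjusted p under 0.05. Log2 fold changes of ceca over interceca ran from -0.17 for PSMC3IP to 0.091 for PSMF1. The 95% interval of the fold change lay within 1.5-fold in either direction for all 34, as it did for 72.3% of all genes tested and for 88.4% of the 5100 genes tested in the same range of levels. It lay within 0.32 on the log2 scale for 33 of the 34, the exception being PSMC3IP, and for 64.5% of the genes in that range.

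**Figure D1:**
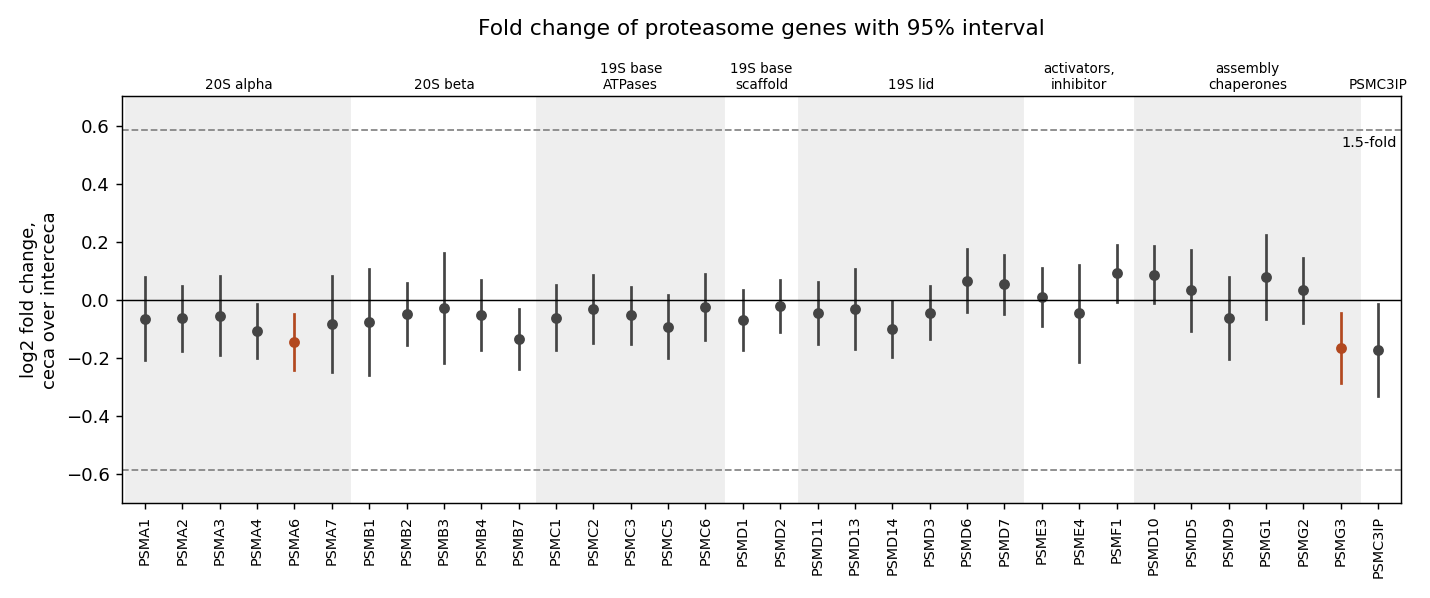
Log2 fold change of each of the 34 proteasome genes, ceca over interceca, from log2(RPKM + 0.5) (points), with its 95% interval from limma (lines), grouped by class. The dashed lines mark 1.5-fold, every interval ends inside them, and the 2 genes past the threshold, PSMA6 and PSMG3, are drawn in red.

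The median log2 fold change was -0.051 over the proteasome genes and 0.010 over all genes tested, and the median absolute log2 fold change was 0.063 against 0.15. In the genes of the same RPKM range the median absolute value was 0.11. The libraries of the tissues did not overlap for 8 of the 34 genes, 6 of them lower and 2 higher in ceca, against 44.1% of all genes tested (21.1% lower). Over all 6 libraries the coefficient of variation had a median of 4.27% and a range of 1.73% to 8.54%, against a median of 7.28% in the genes of the same RPKM range. Counting error alone, at 226 to 9005 reads per gene and library, had a median of 1.73%. In these comparisons the genes of the same RPKM range lay lower, at a median of 33.1 against 113 RPKM. Genes matched in level were not compared.

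**Figure D2:**
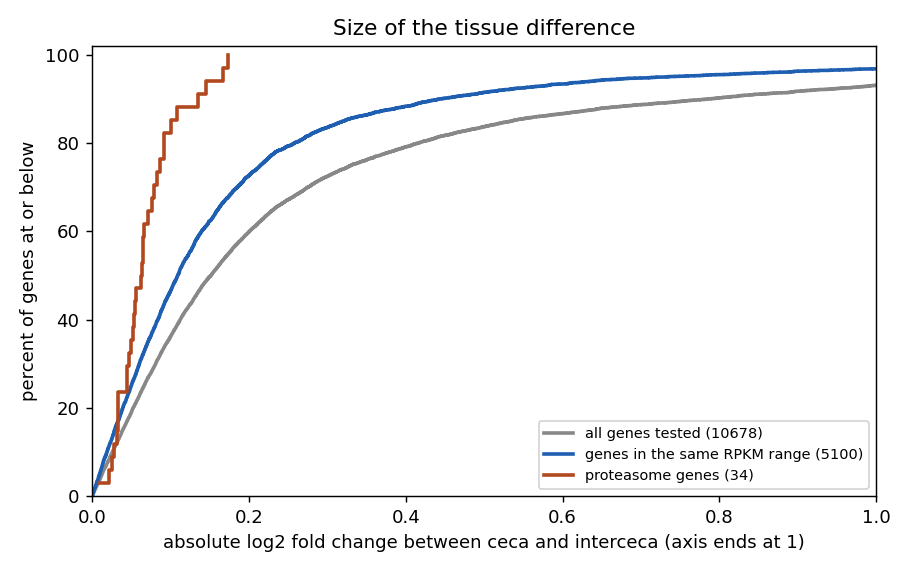
Cumulative percent of genes (vertical axis) at or below a given absolute log2 fold change between ceca and interceca (horizontal axis) for the 34 proteasome genes, the 5100 genes of the same RPKM range and all 10678 genes tested. The proteasome curve reaches the top at 0.17, where the other curves are still rising. The 5100 genes have a lower median level than the proteasome genes (33.1 against 113 RPKM).

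Of the proteasome genes 26 (76.5%) had a log2 fold change below 0 and 8 one above 0. Below 0 were also 48.0% of all genes tested and 46.6% of those in the same RPKM range. The genes share each library, so the signs of the 34 are not independent. After quantile normalization 17 of the 34 lay below and 17 above, with a median of -0.0072. With median-of-ratios scaling 27 lay below 0, with a median of -0.060. The excess of genes below 0 was thus not present under quantile normalization. The deposited values were in any case relative to all reads of a library, so a change in the amount of all RNA per cell could not be seen.

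In the authors' deposited table, 0 of the 34 genes had an adjusted p-value under 0.05, against 20.9% of all 17108 genes in it and 28.9% of the genes tested here. The lowest adjusted value there was 0.106, for PSMG3, and 2 genes had an unadjusted p-value under 0.05. The deposited log2 fold changes of the 34 genes ran from -0.18 to 0.091.

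Among the alpha ring subunits, PSMA1, PSMA2, PSMA3, PSMA4, PSMA6 and PSMA7 were measured. PSMA6 (ENSGALG00000010060) was at 132, 138 and 138 RPKM in ceca replicates 1 to 3 and at 147, 152 and 152 RPKM in interceca replicates 1 to 3. Every ceca library lay below every interceca library. The means were 136 ± 3.7 and 151 ± 2.8 RPKM (SD, n = 3 each), so that ceca stood at 90.4% of the interceca level. On the log2 scale the fold change was -0.15 ± 0.041 (SE), and the adjusted p was 0.0331. The call was lost with limma-voom (adjusted p = 0.0588), with no trend (0.089), with quantile normalization (0.0907) and without ceca replicate 1, 2 or 3 (0.0983, 0.071 and 0.0791) or interceca replicate 2 or 3 (0.109 and 0.0859). It was also lost without replicate 1 of both tissues (0.0726). Leaving out libraries lowered the share of all genes called as well, from 27.5% to between 19.5% and 24.2%.

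PSMA4 was at 180, 178 and 178 RPKM in ceca and at 193, 187 and 198 RPKM in interceca, again without overlap. Its log2 fold change was -0.11 ± 0.040 and the adjusted p was 0.0846, or 0.0465 with the replicate number as a block. The other 4 alpha subunits overlapped between the tissues, with log2 fold changes of -0.083 to -0.055. All 6 log2 fold changes of this ring were below 0, but after quantile normalization 4 were below and 2 above. Summed over the ring, RPKM were 838, 885 and 870 in ceca and 884, 917 and 952 in interceca, so the highest ceca library stood just above the lowest interceca library.

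The beta ring subunits measured were PSMB1, PSMB2, PSMB3, PSMB4 and PSMB7, of which PSMB7 carries a proteolytic site with trypsin-like activity. PSMB7 had the highest level of all proteasome genes, at 222, 213 and 206 RPKM in ceca and at 231, 232 and 241 RPKM in interceca. The tissues did not overlap. Its log2 fold change was -0.14 ± 0.045 and the adjusted p was 0.0592, or 0.0386 with the replicate block. It also passed with median-of-ratios scaling (0.0468) and without ceca replicate 1 (0.0498). The other 4 beta subunits had log2 fold changes of -0.076 to -0.028 and overlapped between the tissues. PSMB3 had the largest standard error of the 34 genes (0.082), with 98.7 RPKM in interceca replicate 1 against 119 and 124 RPKM in replicates 2 and 3. All 5 beta subunits were below 0 in log2 fold change, against 3 of the 5 after quantile normalization.

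The ATPases of the base, PSMC1, PSMC2, PSMC3, PSMC5 and PSMC6, form the ring that unfolds substrates and threads them into the core. None of the 5 was called by limma, 0 had an unadjusted p under 0.05, and 0 were called by limma-voom. The largest difference was that of PSMC5, at 115, 123 and 116 RPKM in ceca and at 122, 124 and 130 RPKM in interceca. The tissues overlapped there by 1 ceca library, and the log2 fold change was -0.092 ± 0.047 (adjusted p = 0.187). The remaining ATPases lay between -0.062 and -0.025. Their levels spanned a narrow band, with means over 6 libraries of 113 to 176 RPKM. After quantile normalization 2 of the 5 were below 0.

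The scaffold subunits PSMD1 and PSMD2 are the largest proteins of the base. PSMD1 was at 85.9, 90.9 and 85.9 RPKM in ceca and at 94.4, 92.1 and 89.5 RPKM in interceca. These ranges overlapped, and the log2 fold change was -0.071 ± 0.045 (adjusted p = 0.283). PSMD2 had the lowest coefficient of variation of the 34 genes, at 1.73%, with libraries between 111 and 116 RPKM. ADRM1, a ubiquitin receptor of the base that the name rule does not take, had means of 81.3 ± 0.82 and 82.0 ± 4.1 RPKM in ceca and interceca. Its log2 fold change was -0.0096 ± 0.048 (adjusted p = 0.904).

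Lid subunits PSMD3, PSMD6, PSMD7, PSMD11, PSMD13 and PSMD14 included 0 called genes by limma and 0 by limma-voom, with 1 at an unadjusted p under 0.05. That gene was PSMD14, the enzyme that cuts ubiquitin chains from substrates. It was at 68.4, 70.0 and 66.6 RPKM in ceca and at 72.6, 72.4 and 74.8 RPKM in interceca. The tissues did not overlap, and the log2 fold change was -0.10 ± 0.042 (adjusted p = 0.116). PSMD6 (0.066 ± 0.046) and PSMD7 (0.053 ± 0.044), the inactive partner of PSMD14, had values above 0 (adjusted p = 0.34 and 0.424). SEM1, a small lid subunit outside the name rule, was at 62.3 ± 3.6 and 63.2 ± 4.7 RPKM, with a log2 fold change of -0.020 ± 0.067 (adjusted p = 0.852).

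**Figure D3:**
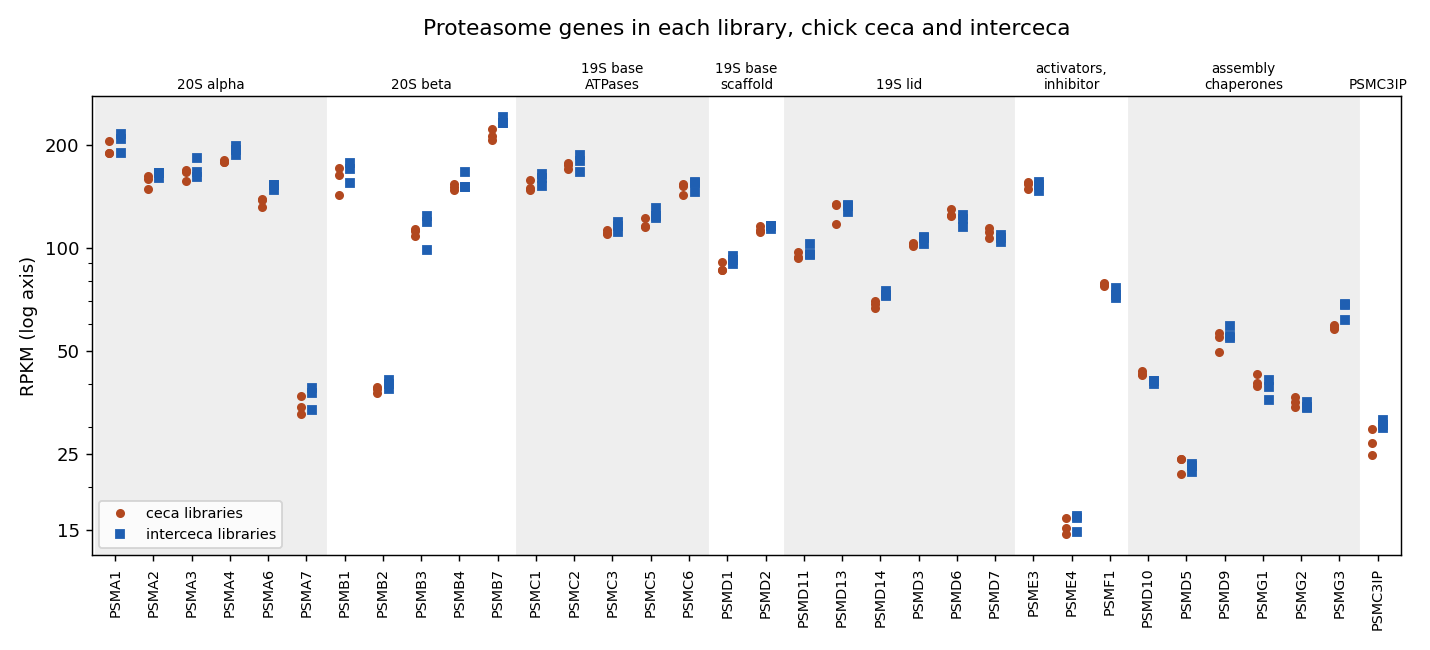
RPKM of each proteasome gene (log axis) in each of the 3 ceca and 3 interceca libraries, grouped by class. Within a gene the libraries of both tissues lie close together, while genes differ from 15.6 RPKM on average (PSME4) to 224 RPKM (PSMB7).

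The alternative activators PSME3 and PSME4 and the inhibitor PSMF1 were also at like levels in the tissues. PSMF1 was at 78.3, 77.3 and 78.9 RPKM in ceca and at 71.4, 76.0 and 72.6 RPKM in interceca. All ceca libraries were above all interceca libraries, and the log2 fold change was 0.091 ± 0.042 (adjusted p = 0.156). PSME3, an activator found in nuclei, had the smallest absolute fold change of the 34 genes, at 148, 155 and 153 RPKM against 147, 152 and 156 RPKM (log2 fold change 0.0086, 95% interval -0.091 to 0.11). PSME4 was the lowest gene of the 34, with 14.6 to 16.5 RPKM over the 6 libraries. For these 3 genes 0 were called by limma or limma-voom, and 0 had an unadjusted p under 0.05.

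Assembly chaperones had a median level over genes of 40.7 RPKM, against 164 RPKM in the alpha ring and 106 RPKM in the lid. PSMG3 (ENSGALG00000004203), a chaperone of alpha ring assembly, was at 59.3, 57.9 and 58.7 RPKM in ceca and at 61.6, 68.0 and 68.3 RPKM in interceca. The tissues did not overlap, with interceca replicate 1 nearest to the ceca libraries. Ceca stood at 88.9% of the interceca level, which is -0.17 ± 0.052 on the log2 scale, and the adjusted p was 0.0462. The call was lost with limma-voom (0.0641), with no trend (0.0958) and with no filter (0.0516). It was also lost without ceca replicate 1, 2 or 3 (0.0813, 0.125 and 0.122) or interceca replicate 2 or 3 (0.146 and 0.131). A smaller share of all genes was called without those libraries too.

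PSMG1 and PSMG2, which act together on the alpha ring, differed by 0.078 ± 0.062 and 0.033 ± 0.048 on the log2 scale (adjusted p = 0.397 and 0.66). Among the chaperones of the base, PSMD10 was at 43.6, 42.5 and 42.8 RPKM in ceca and at 40.8, 39.9 and 40.7 RPKM in interceca. The tissues did not overlap, and the adjusted p was 0.17 (log2 fold change 0.087 ± 0.042). PSMD5 had a log2 fold change of 0.032 and PSMD9 of -0.063. POMP, which assists beta ring assembly and lies outside the name rule, had means of 88.7 ± 4.0 RPKM in ceca and 93.8 ± 6.3 RPKM in interceca. The difference was -0.080 ± 0.060 on the log2 scale (adjusted p = 0.375).

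PSMC3IP is taken by the rule for its name, yet it is known as a partner of recombinases in meiosis and is no proteasome subunit. It was at 29.5, 26.8 and 24.8 RPKM in ceca and at 29.7, 30.4 and 31.4 RPKM in interceca. The tissues did not overlap, though ceca replicate 1 lay just below the lowest interceca library. Its log2 fold change was -0.17 ± 0.069 (adjusted p = 0.102, and 0.0337 without ceca replicate 1). Without it, 33 genes remained, of which 2 were lower and 25 had a log2 fold change below 0.

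Levels of RPKM differed among subunits that the particle holds in equal numbers. In the alpha ring they ran from 35.6 RPKM for PSMA7 to 199 RPKM for PSMA1, and in the beta ring from 39.2 RPKM for PSMB2 to 224 RPKM for PSMB7. The steps between RPKM values gave the length of the gene model behind each value. For PSMA7 this was 4476 bases and for PSMB2 it was 5093 bases, while the other genes of these rings had models of 790 to 1128 bases. Their reads were of the same order, with 2386 reads for PSMA7 and 2785 for PSMA1 in interceca replicate 1. The low RPKM of PSMA7 and PSMB2 thus went with long models, and whether those bases belong to the transcripts was not tested. A gene's fold change between tissues does not depend on its model length. The order of the 34 levels was nearly the same in both tissues (Spearman's rho 0.996 across genes, which are not independent replicates and share a model length in each tissue).

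The 3 genes with a proteasome name outside the 34 were PSMA5 and PSMD4, listed at 0 in every library, and PSMD12, with 1 read in interceca replicate 1 and 0 in the rest. PSMA5 is an alpha subunit, PSMD4 a ubiquitin receptor and PSMD12 a lid subunit that every proteasome contains, so these entries are described only as listed at or near 0. No row carries the symbol PSMA8, PSMB5, PSMB6, PSMB8, PSMB9, PSMB10, PSMB11, PSMC4, PSMD8, PSME1, PSME2 or PSMG4, and these genes were not analysed here.

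Small shifts were shared between subunits within a library. Interceca replicate 3 lay above each gene's mean by a median of 0.10 on the log2 scale in the alpha ring and 0.12 in the beta ring. Ceca replicate 1 lay at -0.10 and -0.056 in the same rings. These deviations are from the mean over all 6 libraries, so they also hold the difference between the tissues. Replicate 1 was the lowest library of its tissue in both tissues for 14 of the 34 genes (41.2%), against 21.2% of all genes tested. In interceca alone it was lowest for 23 of the 34, against 36.5% of all genes. This library had the fewest reads, and whether depth played a part in the shift was not tested. The same-numbered pairs gave medians over the 34 genes of -0.028, -0.022 and -0.061, so each pair fell below 0 by a small amount.

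**Figure D4:**
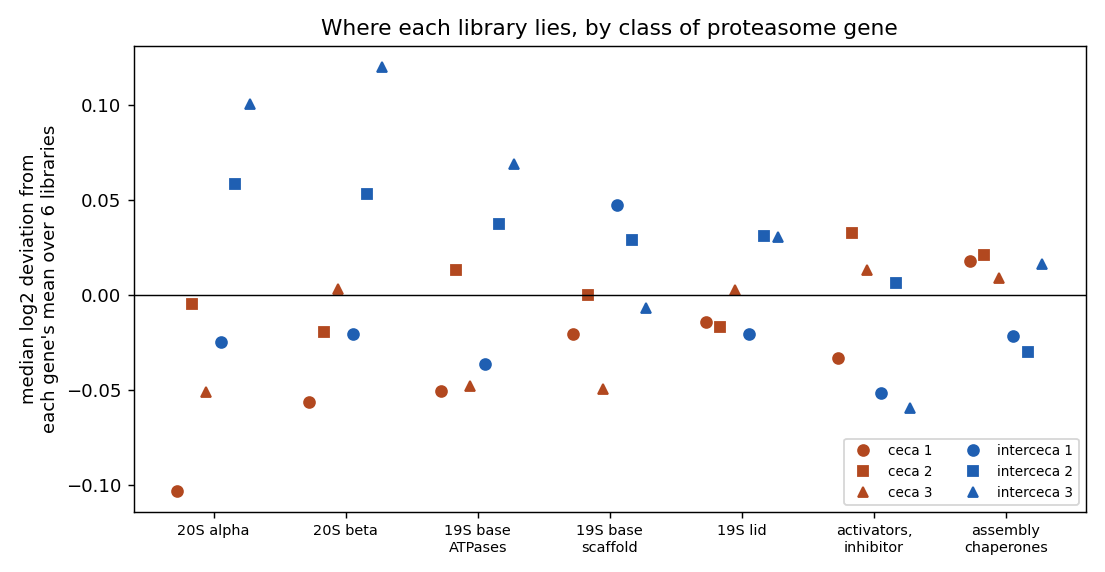
Median, over the genes of each class, of the log2 deviation of a library from each gene's mean over 6 libraries, with ceca libraries in red, interceca libraries in blue and the replicate number given by the marker. In both 20S rings ceca replicate 1 is lowest and interceca replicate 3 highest, and the spread in the other classes plotted is smaller (PSMC3IP, a single gene, is not plotted).

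With the replicate number as a block, 4 of the 34 genes were lower in ceca, PSMA4, PSMA6, PSMB7 and PSMG3, and 0 were higher, while that fit called 35.3% of all genes tested and 17.7% as lower. PSMA6 then had an adjusted p of 0.0129 and PSMG3 one of 0.0326. Of these 4 genes, 3 are among the 11 measured 20S subunits. Of those 11, limma called 1, median-of-ratios scaling called 2, and limma-voom and quantile normalization called 0. In that order, these fits called 14.1%, 14.5%, 14.4% and 13.3% of all genes tested as lower.

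Markers of several cell types differed between the tissues. As shares to set beside the counts below, limma called 27.5% of all genes tested, limma-voom 30.1% and the replicate block 35.3%. Recovered reads in genes came to 15741991 to 22802209 per library. Of the 6 gut epithelium markers tested 5 were lower in ceca and 1, CDX2, was higher, and the 8 listed markers with a row summed to 84.0 to 129 RPKM in ceca against 296 to 437 in interceca, with KRT18 listed at 0. All 5 smooth muscle markers tested were lower, with a sum of 179 to 207 against 459 to 488 RPKM. Of 7 enteric neural crest and neuron markers 2, EDNRB and NEFM, were lower by limma, 4 were called by limma-voom and 5 with the replicate block, and 6 had an unadjusted p under 0.05. Their median log2 fold change was -0.89, with SOX10 at 0.791 against 1.78 RPKM and RET at 2.00 against 3.99 RPKM. Their sums, 748 to 854 against 896 to 937 RPKM, were mostly TUBB3 (765 against 855 RPKM on average). Of 5 mesothelium markers tested 2, WT1 and BNC1, were higher by limma and 2, MSLN and UPK1B, were lower. KRT19 was at 58.7 against 91.0 RPKM and was called by limma-voom and with the replicate block. The mesothelium sums were 282 to 308 against 131 to 169 RPKM, and in ceca they were mostly WT1 (188 against 27.8 RPKM on average). Of 6 endothelium markers 1, CDH5, was higher by limma, and the sums were 100 to 116 against 83.2 to 111 RPKM. In that list limma-voom called TEK too, with a value below 0 (-0.36 on the log2 scale, at 1.30 against 1.79 RPKM). Blood markers had 0 of 6 called, with 3 at an unadjusted p under 0.05 and 1 called by limma-voom (744 to 779 against 537 to 723 RPKM). Of 5 mesenchyme markers tested 1, TCF21, was higher by limma, and limma-voom and the replicate block each called PDGFRA too (0.28 on the log2 scale). At an unadjusted p under 0.05 there were 3, the other being BARX1, with a value below 0 (-0.95, at 1.92 against 4.29 RPKM). The mesenchyme sums, 721 to 774 against 685 to 743 RPKM, were mostly FOXF1 (326 and 321 RPKM) and COL1A2 (275 and 278 RPKM). Whether the cell types behind these markers had a part in the small differences of PSMA6 and PSMG3 was not tested, and in bulk tissue fewer cells of a type and less RNA per cell cannot be told apart. Of 16 proliferation genes tested 1, the mitotic kinase AURKA, was lower in ceca (-0.18 ± 0.054 on the log2 scale, adjusted p = 0.0385), and the median of the list was -0.027. At an unadjusted p under 0.05 there were 4 genes. AURKA and MCM5 (-0.11 on the log2 scale) had values below 0, and MKI67 (0.24) and MCM2 (0.12) values above 0. The replicate block called 3 of them, AURKA, MKI67 and MCM2. The limma call of AURKA was lost with limma-voom (0.073) and with no trend (0.0663). It was also lost without ceca replicate 1, 2 or 3 or interceca replicate 2 or 3 (0.0865 to 0.114), and without replicate 1 of both tissues. Fits that left out libraries called a smaller share of all genes.

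Of 11 genes tested among those known to control proteasome gene transcription, only NFE2L2 passed limma's test, and it was higher in ceca. Of all genes tested 27.5% passed. NFE2L2 (ENSGALG00000009240), the main transcription factor of the oxidative stress response, was at 109, 113 and 105 RPKM in ceca and at 66.8, 68.6 and 69.4 RPKM in interceca. All ceca libraries lay above all interceca libraries by a wide margin. The difference was 0.67 ± 0.045 on the log2 scale (adjusted p = 3.91e-05), and it passed under all 16 alternatives. NFE2L1, which in mammalian cells raises proteasome genes when the proteasome is inhibited, was at 58.2, 54.2 and 55.5 RPKM in ceca and at 52.4, 56.3 and 51.8 RPKM in interceca. These ranges overlapped, and the log2 fold change was 0.065 with a 95% interval of -0.055 to 0.19 (adjusted p = 0.4). BACH1, a repressor that competes at the sites NFE2L2 binds, differed by -0.16 ± 0.060 on the log2 scale (adjusted p = 0.092) and was called with the replicate block. At an unadjusted p under 0.05 there were 3 of the 11 genes, the third being MAFG (0.22 ± 0.088 on the log2 scale, adjusted p = 0.112). No row carries KEAP1 or NFE2L3.

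Among proteasome-bound and shuttle factors, 2 of 13 tested were higher in ceca and 0 were lower. Of all genes tested 13.5% were higher and 14.1% lower, and the count of 2 is near that share. UBE3C, a ubiquitin ligase that lengthens chains on substrates at the proteasome, was at 18.9, 20.2 and 19.1 RPKM in ceca and at 14.7, 14.2 and 14.4 RPKM in interceca. The difference was 0.41 ± 0.057 on the log2 scale (adjusted p = 0.00122). UBE3A, another ligase that binds the proteasome, was at 27.2 ± 0.40 against 23.4 ± 0.51 RPKM, 0.21 ± 0.049 on the log2 scale (adjusted p = 0.0138, and 0.0614 without ceca replicate 3). The libraries of the tissues did not overlap for either ligase.

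Of 18 genes of ubiquitin activation and conjugation tested, 1 was higher and 0 were lower, beside 13.5% and 14.1% of all genes tested. The conjugating enzyme UBE2E3 was at 144, 147 and 147 RPKM in ceca and at 111, 116 and 105 RPKM in interceca, a difference of 0.40 ± 0.047 on the log2 scale (adjusted p = 0.000553). With the replicate block 5 of the 18 were called, UBE2E3 and, with log2 fold changes below 0, UBE2C, UBE2D3, UBE2G2 and UBE2L3. That fit called 35.3% of all genes tested. Genes of the VCP segregase, which extracts ubiquitin-bearing proteins for the proteasome, had 0 of 11 called by limma, 0 by limma-voom and 1 at an unadjusted p under 0.05. The replicate block called 2 of them, UBXN7 and DERL1.

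**Figure D5:**
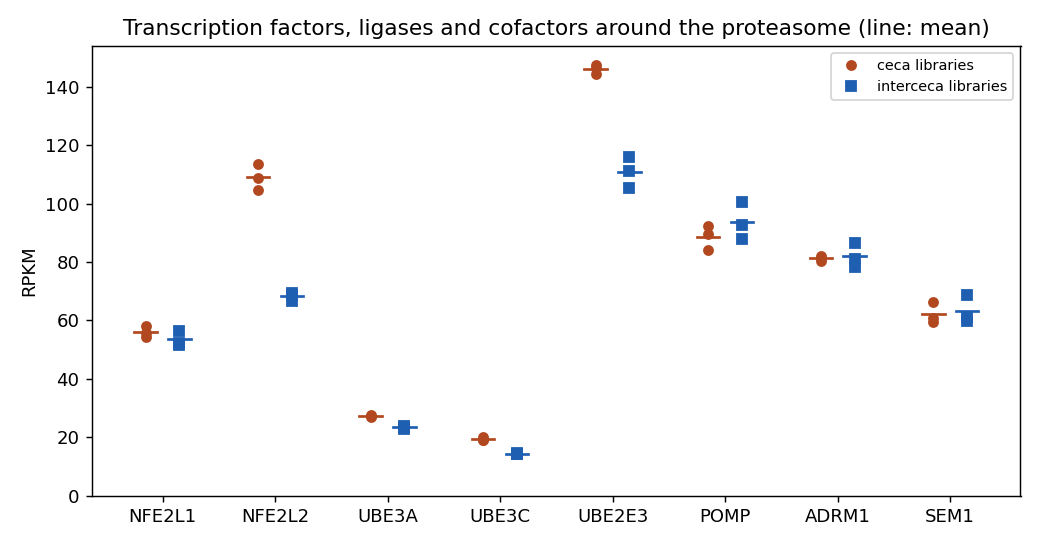
RPKM of NFE2L1 and NFE2L2, of the ligases UBE3A and UBE3C, of the conjugating enzyme UBE2E3 and of the cofactors POMP, ADRM1 and SEM1 in each ceca and interceca library (points) with the tissue mean (line). NFE2L2, UBE3A, UBE3C and UBE2E3 separate the tissues, and the other 4 overlap.

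As other complexes of many subunits, the COP9 signalosome had 0 of 8 genes called by limma and the CCT chaperonin 0 of 6, with 0 at an unadjusted p under 0.05 in each and 0 called by limma-voom. Their median log2 fold changes were -0.061 and -0.065, beside -0.051 for the proteasome genes. With the replicate block 1 CCT gene, CCT8, was called, beside 35.3% of all genes tested. Limma called 27.5% of those genes and limma-voom 30.1%. No difference between the complexes was tested.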

How the data were processed

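RNA was extracted with Trizol and sequenced from strand-specific libraries, per the labels' protocols. The authors deposited RPKM per gene and library. Their series table also holds a log2 fold change, a p-value, an adjusted p-value and its -log10, per the file headers. Its 1 row with values but no gene name was left out. The submitters' processing notes name STAR, HTSeq, bcl2fastq and edgeR and the build galGal4. Settings, annotation and use of strand in counting: not given in the sources used here. All 6 per-library files equal the series table. RPKM are not counts, so log2(RPKM + 0.5) was compared with limma 3.58.1 in R 4.3.3 (lmFit, then eBayes with trend, for tissue alone, two-sided). P-values were adjusted by Benjamini-Hochberg over the 10678 genes at 1 RPKM or more in at least 3 libraries, with a threshold of 0.05. This scale understates the change of low genes. Whole reads, within 0.01 read, came back from the RPKM steps for 100.0% of the 14080 genes above 0, and a library total that gave whole gene lengths was found from 1619 genes, 99.8% of which had a whole length. Counting errors are Poisson and cover counting only.

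Members and gene lists were chosen with earlier results of these data known. Values in every library are given for proteasome genes past the threshold and for the proteasome gene of each class with the largest absolute fold change. In the other lists, markers of cell types aside, up to 4 genes in each direction past the threshold are named, as well as ADRM1, SEM1, POMP, NFE2L1 and NFE2L2. Other genes named were chosen after their values were seen. Of 210 list entries 173 had a row, some under an older symbol taken from a RefSeq table of another assembly, which was used for names only. Deviations from tissue means correlated across genes at 0.364, 0.227 and 0.213 between same-numbered libraries. Between libraries of different numbers the correlations ran from -0.24 to 0.031. The deviations cancel within a tissue for each gene, so these lower values follow in part from the same-numbered ones. From the data, the same numbers were taken as a pairing for the replicate block, while the main fit was for tissue alone. The fit was tested on simulated reads. Python 3.11.15, numpy 2.4.6, pandas 2.3.3 and matplotlib 3.10.9 were used.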

Additional observations from a re-analysis of the deposited data

How the results depend on the processing

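The count of proteasome genes higher in ceca was 0 under all 16 alternatives, which called 900 to 1879 of the 8575 to 14080 genes tested as higher. The count lower in ceca, 2 with limma, is given here with the share of all genes tested that were lower. It was 2 with a pseudocount of 1 (14.1%) or 0.1 (13.9%) and with a filter at 5 RPKM (12.7%). The count was 1 with no filter (11.5%) and with quantile normalization (13.3%), and 3 with median-of-ratios scaling (14.5%). It was 4 with the replicate block (17.7%), and 0 with no trend (13.2%) and with limma-voom (14.4%). It ranged from 0 to 2 when 1 library was left out (9.56% to 12.4%). The count was 3 (PSMB7, PSMC3IP and PSMG3) without replicate 1 of both tissues, an alternative chosen after seeing the data. That fit called 1130 of 10311 genes tested as lower. Without interceca replicate 1, PSMA6 and PSMG3 were both still called, but without ceca replicate 1 the 2 genes called were PSMB7 and PSMC3IP. The median log2 fold change was -0.0072 with quantile normalization and ranged from -0.074 to -0.032 when 1 library was left out. The median of all genes tested, 0.010 with limma, was 0.0014 with median-of-ratios scaling and 0.022 with quantile normalization. With quantile normalization, log2 fold changes crossed 0 for PSMA2 (0.0014), PSMA3 (0.015), PSMB3 (0.014), PSMB4 (0.0064), PSMC1 (0.0055), PSMC2 (0.026), PSMC6 (0.033), PSMD13 (0.013) and PSMD2 (0.011). PSME3 went to -0.00043 with median-of-ratios scaling. With libraries left out, values also crossed 0 for PSMB3 (-0.13 to 0.035), PSMC2 (-0.078 to 0.0027), PSMC6 (-0.058 to 0.0060), PSMD13 (-0.068 to 0.030), PSME3 (-0.015 to 0.028), ADRM1 (-0.040 to 0.030) and SEM1 (-0.067 to 0.040). None of these crossings passed the threshold, and their cause was not tested. Over all proteasome genes and alternatives, 502 values kept their direction and side of the threshold, 18 crossed 0, 17 lost a call and 7 gained one. The pairing rests on the data, and the replicate block changed no other call among the 34 genes. Over the alternatives, adjusted p ran from 0.0129 to 0.109 for PSMA6 and from 0.015 to 0.146 for PSMG3. Depth limits differences of a few percent in genes with few reads, such as PSMG2.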
